A study of Homo sapiens with 4 samples.

Results

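Splicing factor genes of the SRSF, TRA2, HNRNP, SF3A, SF3B and SNRP families were examined in 143B cells, a human osteosarcoma line, after knockdown of CBX3. Members were taken by gene symbol from the deposited count table: 58 of its 37450 features matched these family names once HNRNPA2B1, which shares exon bases with CBX3, and 134 symbols of the numbered pseudogene form were left out. Of these 58 genes, 55 passed the filter on low counts and were tested. HNRNPCL1, HNRNPCL2 and HNRNPCL4, relatives of HNRNPC, did not pass, with at most 8 counts in any library. The 4 libraries of stranded mRNA came from 143B cells, all transfected with siRNA by Lipofectamine RNAiMAX and harvested at day 2. Cells of genotype WT received control siRNA (siNC, 2 libraries), and cells of genotype CBX3 knockdown received siRNA against CBX3 (siCBX3, 2 libraries). The siRNA sequences, and how many there were, are not given in the sources used here. Nothing in the labels tells whether replicates were separate cultures, so p-values measure the spread between these libraries, which may be technical.

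Splicing removes introns from pre-mRNA in the spliceosome, which is built from small nuclear ribonucleoproteins (snRNPs). Each of the U1, U2, U4 and U5 snRNPs carries a ring of Sm proteins, encoded by the SNRPB, SNRPD, SNRPE, SNRPF and SNRPG genes, while SNRPA and SNRPC belong to U1 and SNRPA1 and SNRPB2 to U2. The SF3A and SF3B complexes complete the U2 snRNP at the branch point. SR proteins (SRSF and TRA2) bind exonic enhancers and mostly promote exon inclusion, whereas hnRNP proteins coat nascent RNA and often oppose it. CBX3 encodes HP1γ, a reader of methylated histone H3 that has been linked to transcription elongation and splicing.

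Total counts ranged from 36509298 to 40336907 per library. In siNC, CBX3 counts were 20311 and 21384, against 2020 and 2163 after knockdown, a 9.15-fold lower level (edgeR adjusted p 2.73e-20). Log2 fold changes are siCBX3 minus siNC and a gene is called changed at a Benjamini-Hochberg adjusted p under 0.05 in edgeR's quasi-likelihood test over all genes. Levels of single genes are in CPM, counts scaled to library size with TMM factors. Levels compared between genes are in RPKM, counts divided by exon length and library total without TMM factors.

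Of 7 mesenchymal or bone markers 5 were higher in siCBX3. VIM (log2 fold change 1.01), SPARC (2.43), SPP1 (2.82), COL1A1 (0.44) and RUNX2 (0.39) were called, COL1A2 was not (0.24), and ALPL had at most 4 counts in any library. Of 3 epithelial markers EPCAM was lower (-0.51, 342 to 598 counts), KRT19 was not called (-0.10, 94 to 142 counts) and CDH1 had at most 8 counts. Of 3 leukocyte markers PTPRC and CD3E had at most 18 and 4 counts, while CD68, a lysosomal protein gene, had 16196 to 23174 counts and was higher (0.60). The endothelial markers PECAM1, CDH5 and VWF had at most 62, 4 and 16 counts. What part the moving markers have in the results was not tested.

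Promoter windows of 4 members are shown because SNRPA1, HNRNPAB and SNRPD3 are among the 4 members with the lowest log2 fold changes and HNRNPDL had the highest. The other of those 4, SNRPG, is not shown because its window lies wholly inside the gene as the count table places it. RefSeq (build GRCh38.p14) gave promoter sequences, 250 bases before to 50 after the start, for 50 of the 55 tested members. The RefSeq start was within 50 bases of the gene's 5' end in the count table for 14 of the 50, and for 15 the window lay wholly inside the gene. For the windows shown, the RefSeq start was 34 (SNRPA1), 26 (HNRNPAB), 147 (SNRPD3) and 183 (HNRNPDL) bases downstream of that end. Capitals mark CCGGAAG or its reverse complement CTTCCGG (an ETS-type site), CCAAT or ATTGG (an NF-Y-type site) and CACGTG (an E-box), searched on both strands. These letters describe the window, and binding was not measured.
SNRPA1, chr15:101295199-101295498, minus strand: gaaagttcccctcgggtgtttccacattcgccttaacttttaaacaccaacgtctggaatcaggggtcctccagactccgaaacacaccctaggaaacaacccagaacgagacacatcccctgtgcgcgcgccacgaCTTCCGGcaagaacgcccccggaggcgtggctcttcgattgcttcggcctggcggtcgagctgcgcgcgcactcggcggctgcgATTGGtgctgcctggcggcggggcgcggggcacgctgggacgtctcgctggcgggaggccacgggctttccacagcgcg
HNRNPAB, chr5:178204283-178204582, plus strand: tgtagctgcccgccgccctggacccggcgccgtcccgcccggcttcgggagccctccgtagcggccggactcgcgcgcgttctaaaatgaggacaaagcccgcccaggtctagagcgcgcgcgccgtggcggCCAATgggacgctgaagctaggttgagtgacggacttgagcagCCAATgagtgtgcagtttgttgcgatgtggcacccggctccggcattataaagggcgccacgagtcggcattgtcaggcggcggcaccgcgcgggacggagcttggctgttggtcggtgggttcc
SNRPD3, chr22:24555400-24555699, plus strand: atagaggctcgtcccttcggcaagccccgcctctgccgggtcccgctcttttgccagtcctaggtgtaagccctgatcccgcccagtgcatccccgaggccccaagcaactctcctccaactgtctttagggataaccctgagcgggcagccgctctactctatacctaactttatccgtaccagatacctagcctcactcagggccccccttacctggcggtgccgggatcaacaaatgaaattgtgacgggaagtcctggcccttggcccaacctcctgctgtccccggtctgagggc
HNRNPDL, chr4:82430176-82430475, minus strand: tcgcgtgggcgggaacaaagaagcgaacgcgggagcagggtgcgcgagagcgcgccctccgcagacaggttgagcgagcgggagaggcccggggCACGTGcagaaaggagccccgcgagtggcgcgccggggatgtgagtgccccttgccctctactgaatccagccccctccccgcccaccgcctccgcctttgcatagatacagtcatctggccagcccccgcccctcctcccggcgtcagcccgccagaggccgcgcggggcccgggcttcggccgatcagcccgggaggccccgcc

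SNRPA1 held 1 ETS-type and 1 CCAAT match, HNRNPAB 2 CCAAT matches and HNRNPDL 1 E-box, and none of these letters was in the SNRPD3 window. CCGGAAG was found in 18 of the 50 members (36.0%), against 17.2% of the 11624 promoters of tested genes and 10.7% of all 27305 promoters of this length. Among Sm ring genes 4 of 7 windows held it, one of them the SNRPG window inside the gene. It was in 39.3% of the 28 promoters of members that fell and in 2 of the 5 of members that rose. CCAAT was in 38.0% of member promoters and 36.1% of those of tested genes, and CACGTG in 16.0% and 9.94%. Over all 27305 promoters the shares were 35.7% and 7.43%.

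The comparison asked whether mRNA of the splicing machinery differed once CBX3 was depleted. More splicing factor genes were lower than higher in siCBX3, by small amounts. Of the 55 tested members 32 fell, 5 rose and 18 were not called. The share that fell was 58.2%, and the share that rose 9.09%. Over all 20999 tested genes 48.4% were called, 24.0% lower and 24.4% higher. Members are abundant, 45 of them with at least 1000 counts in every library. In the subset of 15932 genes whose mean was 50 counts or more, 28.4% were called lower and 28.9% higher. Of the 54 members in that subset 33 fell and 3 rose. The subset was not matched to the members in level. The median log2 fold change of the members was -0.24, against -0.01 for all tested genes. With library totals in place of TMM, the split of all called genes moved from 5041 lower and 5132 higher (50.4% higher) to 5917 lower and 4243 higher (41.8%), and it was 41.7% higher on log2(RPKM + 1) and on log2(RPKM + 0.1). With library totals 34 members fell and 2 rose, and on either RPKM scale 30 fell and 1 rose.

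The changes covered a narrow range. Only SNRPA1 passed an absolute log2 fold change of 1, a size reached by 12.8% of all tested genes together with a call, and 44 members stayed under 0.5. Levels did not overlap between the groups for 46 of 55 members, against 73.9% of all tested genes, and 37 of those 46 were lower in siCBX3. Together the 58 genes took 2.16% and 2.30% of all counts in siNC and 1.90% and 1.94% in siCBX3, so both siCBX3 libraries were under both siNC libraries. Fewer cells with high levels and less RNA per cell cannot be told apart in such bulk samples.

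**Figure D1:**
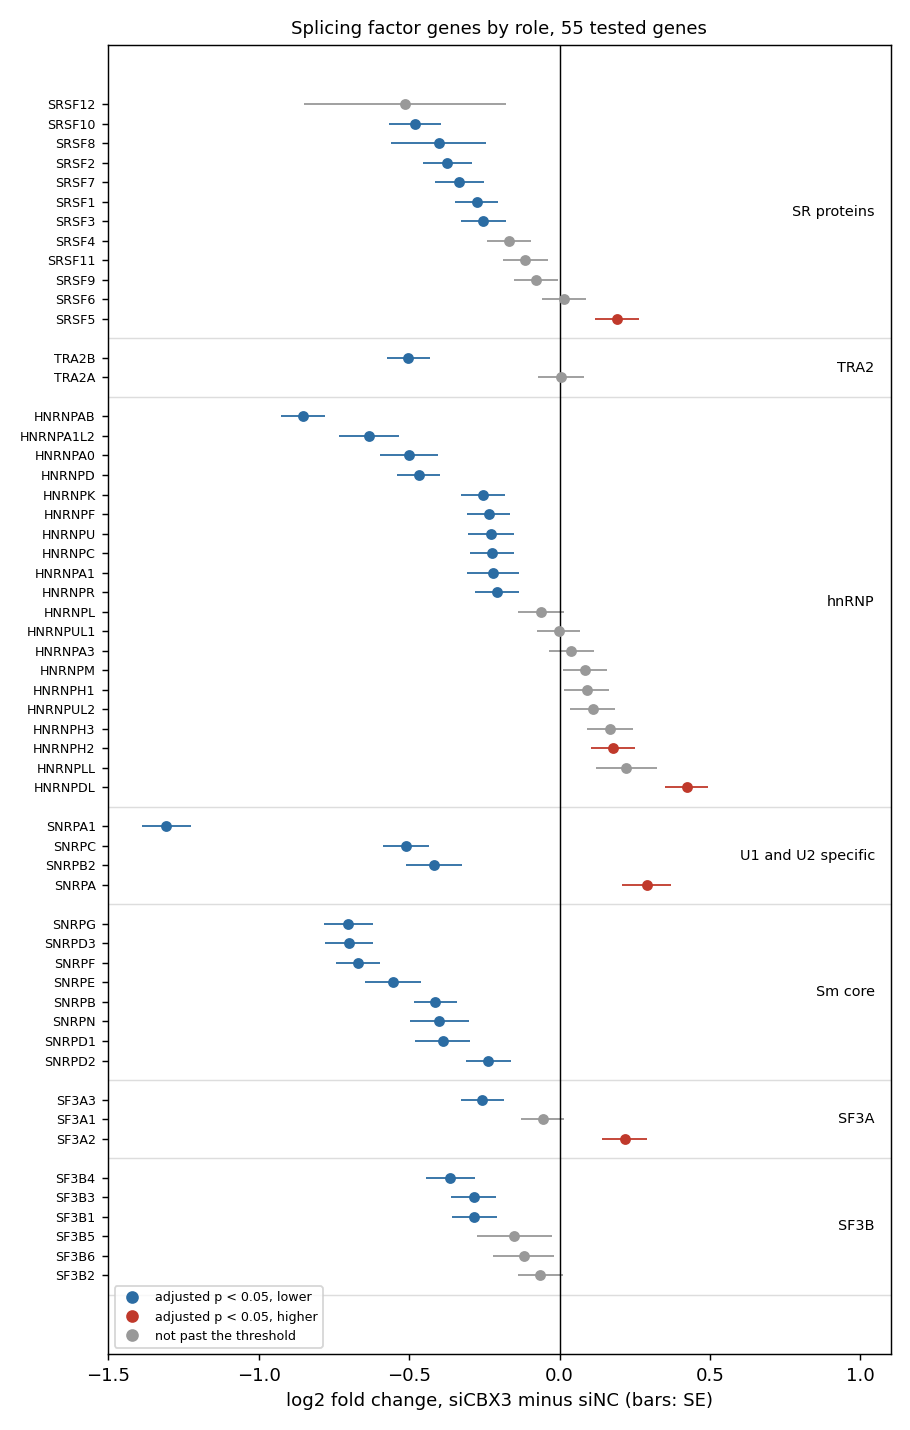
Log2 fold change (siCBX3 minus siNC, horizontal axis) of the 55 tested members, grouped by role, with bars of 1 standard error from the edgeR fit. Blue points fell, red points rose and grey points were not called; all 8 Sm ring genes lie left of 0.

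Of the 12 SR protein genes 6 fell and 1 rose, at a median log2 fold change of -0.26. SRSF10, a splicing regulator of the SR family, was at 177 and 179 CPM in siNC and at 114 and 142 CPM in siCBX3. It fell by 0.48 on the log2 scale (SE 0.09, edgeR adjusted p 5.22e-05), and its 2 siCBX3 libraries lay further apart than its siNC libraries. SRSF2, a classical exonic enhancer factor, was at 54.9 and 52.9 CPM in siNC and at 41.3 and 41.8 CPM in siCBX3 (-0.37, SE 0.08). SRSF7, which also acts in mRNA export, was at 336 and 280.4 CPM in siNC and at 253 and 236 CPM in siCBX3 (-0.33, SE 0.08). These 3 genes were lower in each siCBX3 library than in each siNC library and kept their calls in all 14 alternative analyses.

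The founding SR protein gene SRSF1 was at 296 and 306 CPM in siNC and at 247 and 251 CPM in siCBX3 (-0.27, SE 0.07). SRSF3, the smallest SR protein and also an export adaptor, was at 202 and 205 CPM against 162 and 179 CPM (-0.25). Both calls ended without siCBX3 replicate 1 (edgeR adjusted p 0.0512 for SRSF1 and 0.204 for SRSF3). SRSF8, a retrogene relative of SRSF2, was low at 6.05 and 7.60 CPM against 4.82 and 5.51 CPM and lost its call in 5 of 14 alternatives, among them the analyses without siNC replicate 2 and without siCBX3 replicate 1. SRSF5 was the only SR gene called higher, at 801 and 801 CPM in siNC and 940.3 and 889 CPM in siCBX3 (0.19, SE 0.07). That call ended in 7 of 14 alternatives, among them library totals and the analyses without siCBX3 replicate 1 or replicate 2.

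The SR genes that were not called were SRSF4, SRSF6, SRSF9, SRSF11 and SRSF12. SRSF4 was at 372 and 395 CPM against 339 and 345 CPM (-0.17, edgeR adjusted p 0.0596) and passed the threshold in 8 of 14 alternatives, one of them without siNC replicate 1. SRSF11 had a log2 fold change of -0.11 and passed with library totals and without siNC replicate 2. SRSF9 had -0.08 and SRSF6 0.01, both with an SE of 0.07. SRSF12 was near the detection limit, with 64 and 41 counts in control cells and 30 and 38 after knockdown.

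The TRA2 genes encode SR-like activators of exon inclusion. TRA2B was at 265 and 251 CPM in siNC and at 183 and 182 CPM in siCBX3, without overlap, and fell by 0.50 (SE 0.07, edgeR adjusted p 3.16e-06). TRA2A was at 65.4 and 66.6 CPM against 65.6 and 66.9 CPM, with overlapping groups and an SE of 0.08.

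The hnRNP genes went both ways, with 10 of 20 tested members lower, 2 higher and a median of -0.14. HNRNPAB, an abundant RNA-binding protein related to HNRNPD, had the largest fall of the family. It was at 489.9 and 465 CPM in siNC and at 257 and 272 CPM in siCBX3 (log2 fold change -0.85, SE 0.07, edgeR adjusted p 8.26e-10). HNRNPD, known as AUF1 and a binder of AU-rich elements, was at 972 and 1001 CPM in siNC and at 725 and 701 CPM in siCBX3 (-0.47, SE 0.07). Its relative on the same chromosome arm, HNRNPDL, went the other way, from 333 and 330.0 CPM to 444 and 444 CPM (0.42, SE 0.07, edgeR adjusted p 2.71e-05). None of these 3 genes had overlapping groups. HNRNPDL spans bases 82422564 to 82430408 and HNRNPD bases 82352498 to 82374503 of chromosome 4 (GRCh38), both on the minus strand.

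HNRNPA0, an intronless family member, was at 30.8 and 34.5 CPM against 21.7 and 24.5 CPM (-0.50, SE 0.10). HNRNPA1L2, a retrogene copy of HNRNPA1, was at 25.5 and 24.9 CPM against 15.3 and 17.2 CPM (-0.63, SE 0.10). Its reads may not be separable from those of HNRNPA1, so it is uncertain. HNRNPA1 itself, a splicing repressor and the member with the highest RPKM, was at 1959 and 2433 CPM in siNC and at 1828 and 1941 CPM in siCBX3 (-0.22, SE 0.09, edgeR adjusted p 0.0378). The first siNC library lay close to the siCBX3 libraries and the second far above them, and the call ended in 6 of 14 alternatives, with an adjusted p of 0.519 without siNC replicate 2, 0.233 without siCBX3 replicate 1 and 0.0654 without siCBX3 replicate 2.

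A further 5 hnRNP genes fell by small amounts. They were the poly(C) binder HNRNPK (-0.25), the G-tract binder HNRNPF (-0.24), the nuclear scaffold protein HNRNPU (-0.23), the U-tract binder HNRNPC (-0.23) and HNRNPR (-0.21), each with an SE of 0.07 or 0.08. Leaving out siCBX3 replicate 1 ended the calls of HNRNPC, HNRNPF, HNRNPR and HNRNPU, and leaving out siCBX3 replicate 2 ended those of the same 4 genes and of HNRNPK. The highest adjusted p among these 5 was 0.167 (HNRNPR).

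HNRNPH1, HNRNPH2 and HNRNPH3, whose proteins bind G-rich sequence, had positive log2 fold changes. HNRNPH2 was at 186 and 203 CPM against 218 and 222 CPM (0.18, SE 0.07, edgeR adjusted p 0.049) but was called in only 5 of 14 alternatives, and not without siNC replicate 1, siCBX3 replicate 1 or siCBX3 replicate 2. HNRNPH3 (0.17) and HNRNPH1 (0.09) were not called, though HNRNPH3 passed in 4 of 14 alternatives, one of them without siNC replicate 2. HNRNPLL, a regulator of CD45 splicing in lymphocytes, was at 24.8 and 29.8 CPM against 29.2 and 34.5 CPM (0.22, SE 0.10), with overlapping groups, and passed in 3 of 14, among them without siNC replicate 2 and without siCBX3 replicate 1. The abundant HNRNPA3 was at 1492 and 1611 CPM against 1623 and 1562 CPM, with overlap. HNRNPM, also abundant, was at 1346 and 1450 CPM against 1483 and 1481 CPM (0.08, SE 0.07, edgeR adjusted p 0.365). The remaining HNRNPUL2 (0.11), HNRNPL (-0.06) and HNRNPUL1 were not called, and HNRNPUL2 passed only without siNC replicate 2.

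Among proteins particular to U1 and U2, SNRPA1, SNRPB2 and SNRPC fell and SNRPA rose. SNRPA1 encodes the U2 A′ protein and had the largest change of all members. It was at 91.4 and 87.0 CPM in siNC and at 37.1 and 35.0 CPM in siCBX3, a log2 fold change of -1.31 (SE 0.08, edgeR adjusted p 1.91e-12) that left 1308 and 1327 counts. The gene lies on the minus strand of chromosome 15, from 101281510 to 101295282 (GRCh38), and shares no exon base with another gene of the table. Its partner SNRPB2, the U2 B″ protein, was at 30.4 and 31.1 CPM against 21.7 and 24.4 CPM (-0.42, SE 0.09).

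SNRPC, the U1 C protein that helps recognise 5' splice sites, was at 245 and 224 CPM in siNC and at 172 and 158 CPM in siCBX3 (-0.51, SE 0.08). SNRPA, the U1 A protein, was at 45.6 and 48.4 CPM in siNC and at 55.6 and 59.3 CPM in siCBX3, higher in both siCBX3 libraries (0.29, SE 0.08, edgeR adjusted p 0.00483). Its call ended on log2(RPKM + 1) and log2(RPKM + 0.1) and without siCBX3 replicate 2, with an adjusted p of at most 0.0841.

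All 8 genes of the Sm ring fell, with a median of -0.48. SNRPG was at 63.0 and 60.4 CPM in siNC and at 38.3 and 37.6 CPM in siCBX3 (-0.70, SE 0.08, edgeR adjusted p 1.15e-07). SNRPD3 was at 76.1 and 78.4 CPM against 45.9 and 49.3 CPM (-0.70, SE 0.08), and SNRPF at 194 and 184 CPM against 117 and 121 CPM (-0.67, SE 0.07). In these 3 genes every siCBX3 library was under every siNC library, by far more than the libraries of a group differed. SNRPE was at 29.9 and 33.7 CPM against 21.5 and 21.7 CPM (-0.55, SE 0.09). SNRPB, which encodes the B and B′ proteins and was the most abundant Sm gene per length, was at 305 and 298 CPM against 222 and 230.4 CPM (-0.41, SE 0.07).

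The other Sm genes were SNRPN, an imprinted relative of SNRPB (-0.40, SE 0.10), SNRPD1 (-0.39, SE 0.09) and SNRPD2 (-0.24, SE 0.07). SNRPD1 was not called by the DESeq2 test or on log2(RPKM + 1) or log2(RPKM + 0.1). SNRPD2 was not called without siNC replicate 1 or without siCBX3 replicate 2 (highest adjusted p 0.140). In RPKM, the summed level of the ring was 595 and 608 in siNC and 416 and 432 in siCBX3. For comparison, the 12 SR genes summed to 601 and 607 RPKM in siNC and to 535 and 541 in siCBX3. These sums carry no TMM factors. With library totals in place of TMM, the median log2 fold change of all tested genes was -0.09.

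The SF3 genes, whose proteins hold the branch point in the U2 snRNP, moved by small amounts. Of 6 SF3B genes 3 fell and 0 rose. The members that fell were SF3B4 at 121 and 128 CPM against 105 and 89.0 CPM (-0.36, SE 0.08), SF3B3 (-0.29, SE 0.07) and SF3B1, the subunit most often mutated in myeloid neoplasms, at 396 and 355 CPM against 311 and 306 CPM (-0.28, SE 0.07). SF3B2 (-0.06), SF3B5 (-0.15) and SF3B6 (-0.12) were not called, except SF3B6 without siNC replicate 1. The SF3A genes went apart, with SF3A3 lower at 518 and 523 CPM against 431 and 441 CPM (-0.26, SE 0.07), SF3A2 higher at 82.7 and 81.9 CPM against 96.4 and 94.8 CPM (0.22, SE 0.08, edgeR adjusted p 0.0196) and SF3A1 not called (-0.06). SF3A3 and SF3B3 lost their calls without siCBX3 replicate 1 (adjusted p 0.0826 and 0.0599) and SF3B4 without siCBX3 replicate 2 (0.0725). SF3A2 lost its call in 6 of 14 alternatives, among them library totals and the analyses without either siCBX3 replicate.

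**Figure D2:**
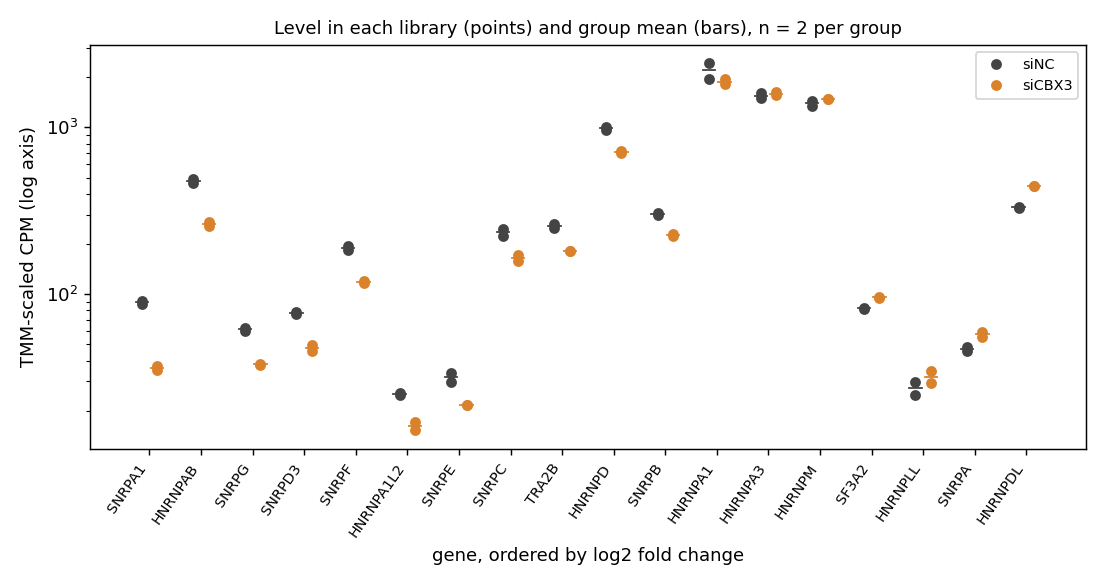
TMM-scaled CPM (log axis) of 18 members in each library, with dark points for siNC, orange points for siCBX3 and short bars for group means. The members are those with the smallest adjusted p, the log2 fold changes furthest up and down and the highest RPKM; groups are apart for SNRPA1 at the left and HNRNPDL at the right, and overlap for HNRNPA3 and HNRNPLL.

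Levels of the members, compared per length, spanned a wide range. The highest in siNC were HNRNPA1 at 444 ± 78.2 RPKM (SD, n = 2), HNRNPA3 at 264 ± 20.6, HNRNPM at 256 ± 19.6 and SNRPB at 242 ± 1.90, with overlapping libraries between HNRNPA3 and HNRNPM and between HNRNPM and SNRPB, while both HNRNPA3 libraries were above both SNRPB libraries. The lowest was SRSF12 at 0.300 ± 0.109 RPKM. Across the 55 members, log2 RPKM had a Pearson correlation of 0.253 and a Spearman correlation of 0.286 with the log2 fold change. Merged exon length gave 0.202 and 0.251. The points share the same 4 libraries, and RPKM is itself divided by length.

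**Figure D3:**
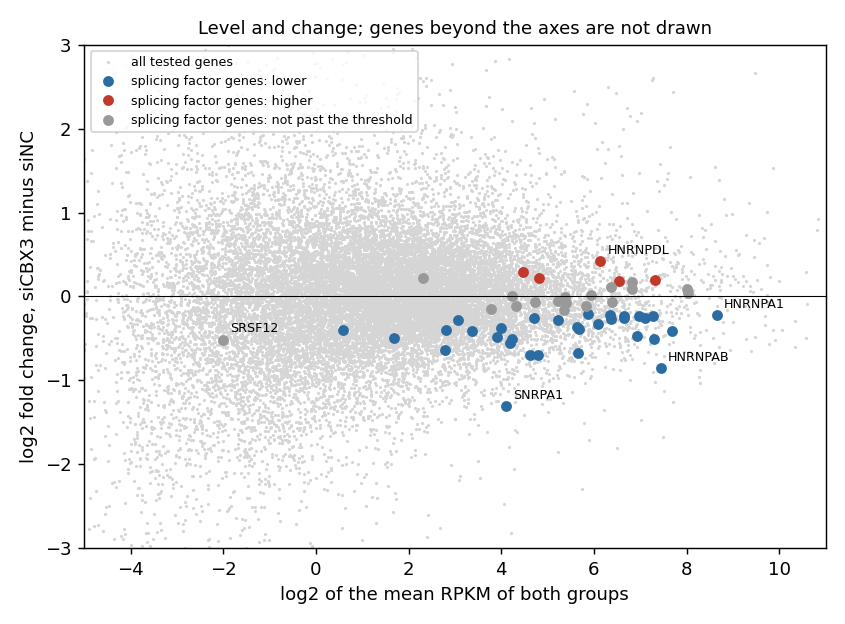
Log2 of the mean RPKM of both groups (horizontal) against the log2 fold change (vertical) for all tested genes within the axes (light grey) and for the members (coloured by call). Most members sit in the upper range of levels and within a narrow band of fold changes, with SNRPA1 at -1.31 and HNRNPDL at 0.42 at its ends.

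Ratios of counts between 2 members within a library do not depend on how libraries are scaled. They were computed for 4 pairs chosen after their fold changes had been seen, so they are descriptions. The ratio of HNRNPD to HNRNPDL was 2.92 and 3.03 in siNC and 1.63 and 1.58 in siCBX3. That of SNRPA1 to SNRPA was 2.00 and 1.80 in siNC and 0.667 and 0.591 in siCBX3, so the order of the counts turned. TRA2B to TRA2A was 4.06 and 3.77 against 2.78 and 2.72, and SF3A3 to SF3A2 was 6.27 and 6.38 against 4.47 and 4.65. Groups did not overlap in any of the 4 pairs. An exact two-sided permutation test with 2 libraries against 2 cannot go below p = 0.333, the value each pair gave.

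**Figure D4:**
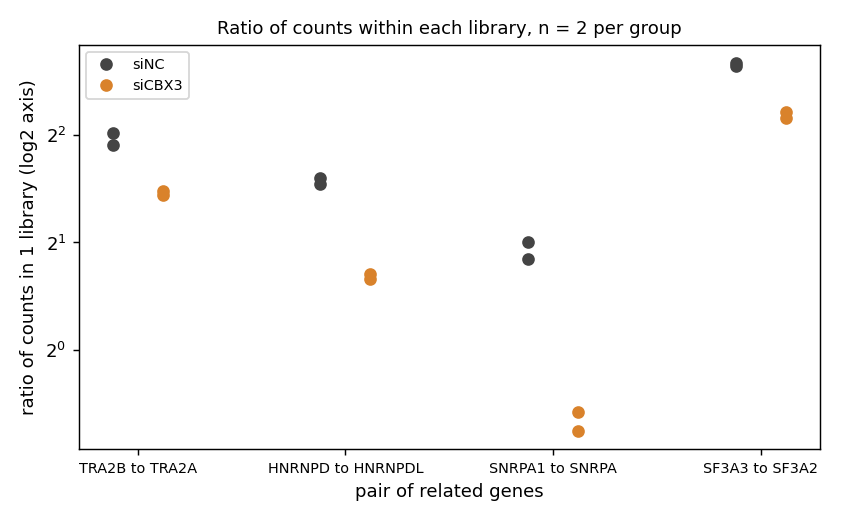
Ratio of counts of 2 members within each library (log2 axis), with dark points for siNC and orange points for siCBX3. In each of the 4 pairs both siCBX3 points lie under both siNC points, and SNRPA1 to SNRPA goes from 1.80 or more to 0.667 or less.

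Some counts cannot be assigned to 1 gene with certainty. Of the 55 members 25 share exon bases with another gene of the table. Of the 30 that share none, 20 fell and 2 rose. The largest overlaps were SRSF9 with GATC on the opposite strand (46.2% of its exon bases), HNRNPUL2 with the readthrough gene HNRNPUL2-BSCL2 (44.5%), SRSF2 with MFSD11 on the opposite strand (36.7%), SNRPN with SNURF (27.8%) and HNRNPU with COX20 on the opposite strand (25.8%). GATC and COX20 were themselves lower in siCBX3 (log2 fold changes -0.59 and -0.50). MFSD11 had 6320 counts over all libraries against 7340 for SRSF2. HNRNPUL2 and its readthrough gene had similar totals, 66828 and 64240 counts. Of the members that rose, HNRNPH2 shares 16.3% of its exon bases with RPL36A-HNRNPH2 on the same strand. RPL36A-HNRNPH2 had 95633 counts against 31616 for HNRNPH2, and a log2 fold change of 0.23. SF3A2 shares 12.7% with PLEKHJ1 (0.54) and SNRPA 3.77% with C19orf54 (0.15, not called), both on the opposite strand. The part of partner reads in these counts was not tested.

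Near-identical copies also bear on the counts. SNRPG had 7690 counts over all libraries, and the 10 pseudogenes named after it had 3972, which is 51.7% of that number. Of these 10, the 3 that passed the filter on low counts were SNRPGP2, SNRPGP10 and SNRPGP15, with log2 fold changes of -0.56, -0.66 and -0.62. The 68 HNRNPA1 pseudogenes held 2.80% as many counts as HNRNPA1. For the other members with numbered pseudogenes the share was at most 3.95% (HNRNPL).

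Many members make transcripts that the gene-level counts do not separate. In GENCODE 29, 33 of the 55 tested members (60.0%) have at least 1 transcript annotated as a target of nonsense-mediated decay, against 41.2% of 13934 tested coding genes. Retained-intron transcripts were annotated for 63.6% of members and 55.9% of coding genes. TRA2B has 8 retained-intron transcripts, and its merged exon length of 11769 bases compares with 2952 for its longest coding transcript. Its RPKM of 22.5 in siNC is therefore lower than the same counts over that transcript would give, and splicing itself was not measured.

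Other genes of the splicing machinery also included more that fell than rose. In 10 further lists 64 of 146 tested genes fell (43.8%) and 22 rose (15.1%), with a median of -0.15. Over all tested genes 24.0% fell and 24.4% rose. Among genes with a mean of 50 counts or more these shares were 28.4% and 28.9%. The LSM ring, which binds U6 and resembles the Sm ring, fell in 6 of 7 genes, with LSM5 at -1.34, LSM6 at -0.89 and LSM3 at -0.61. In the DESeq2 test 4 of the 7 were called lower, and 5 without the low-count filter and on log2(RPKM + 1). Leaving out any single library also reduced the number called. LSM8 was the exception to the fall, at 0.35. Its call ended with library totals (edgeR adjusted p 0.0764) and in the DESeq2 test (adjusted p 0.0506). On log2(RPKM + 1) and log2(RPKM + 0.1) it also ended (limma adjusted p 0.218 and 0.212). Without siNC replicate 1 LSM8 was not called either, at a log2 fold change of 0.20. Genes of the SMN complex and snRNP assembly, which load Sm proteins onto snRNA, fell in 8 of 16 and rose in 1. They included WDR77 (-1.09), which acts with the methyltransferase PRMT5 (-0.39) on Sm proteins, GEMIN5 (-0.58) and TGS1 (-0.59), which further methylates the cap of snRNA. The single rise was GEMIN4 (0.36), which was not called without siCBX3 replicate 1. Nor was GEMIN4 called on log2(RPKM + 1) or log2(RPKM + 0.1) (limma adjusted p 0.0886 and 0.0838).

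Exon junction and decay genes fell in 7 of 15 and rose in 3. The core junction genes EIF4A3 (-0.63), MAGOH (-0.61), MAGOHB (-0.65) and RBM8A (-0.31) were lower, and CASC3 was not called (0.09). Of the decay genes SMG1 (-0.68), SMG8 (-0.33) and UPF1 (-0.20) were lower, and SMG9 (0.47), SMG6 (0.29) and UPF2 (0.24) were higher. Rises in this list numbered 2 with library totals and 1 on both RPKM scales, and were fewer without siCBX3 replicate 2. Genes associated with U2 fell in 4 of 9 and rose in 1, led by U2SURP (-0.66), DHX15 (-0.50) and RBM17 (-0.45). The tri-snRNP list had 6 of 15 lower and 2 higher, with PRPF4 at -0.44 and SNRNP40 at -0.46. Its rises numbered 1 with library totals and 0 on both RPKM scales, and were fewer without either siCBX3 replicate. The catalytic and Prp19 list had 8 of 20 lower and 2 higher (5 lower without siCBX3 replicate 1), with RBM22 at -0.60, XAB2 at -0.54 and SYF2 at 0.69.

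In the list of U1 and early recognition genes 4 of 11 fell and 1 rose, with U2AF2, which binds the polypyrimidine tract, at -0.23, LUC7L3 at -0.24 and LUC7L at 0.34. None of the 4 was called lower without siCBX3 replicate 1 or without siCBX3 replicate 2. Other splicing regulators fell in 17 of 33 and rose in 5. MBNL1 fell by 1.12 while its relative MBNL2 rose by 1.32, and ILF2 fell by 0.68 and SRRM1 by 0.66. Leaving out siCBX3 replicate 1 gave 11 lower and 3 higher, and leaving out siCBX3 replicate 2 gave 9 and 3.

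The minor spliceosome and SR kinase lists had shares near those of all tested genes (24.0% lower and 24.4% higher). Minor spliceosome genes fell in 2 of 11 (18.2%) and rose in 3 (27.3%), with SNRNP25 at -0.98, SNRNP35 at 0.52 and ZCRB1 at -0.42. Genes of SR kinases and SR protein import fell in 2 of 9 (22.2%) and rose in 3 (33.3%). CLK4, a kinase that releases SR proteins from speckles, was at 0.50 and the cytoplasmic kinase SRPK1 at 0.23. The importer TNPO3 (-0.24) and PRPF4B (-0.22) were lower. These counts of SR kinase and import genes moved with single libraries, to 1 lower and 3 higher without siNC replicate 2, 0 and 2 without siCBX3 replicate 1 and 0 and 1 without siCBX3 replicate 2. Library totals gave 3 lower and 1 higher, both RPKM scales 2 and 1, and upper-quartile scaling and leaving out siNC replicate 1 gave 2 and 2. Minor spliceosome counts were equal in both directions in 7 of 14 alternatives and 3 lower and 2 higher with library totals.

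Cell division genes moved with these lists. All 20 genes of a mitosis list fell, against 24.0% of all tested genes. The list had a median of -0.56, with MKI67 at -1.13 and TOP2A at -0.89. Not all 20 stayed called when either siCBX3 library was left out. Whether the fall of mitosis genes has a part in the lower splicing factor levels was not tested.

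**Figure D5:**
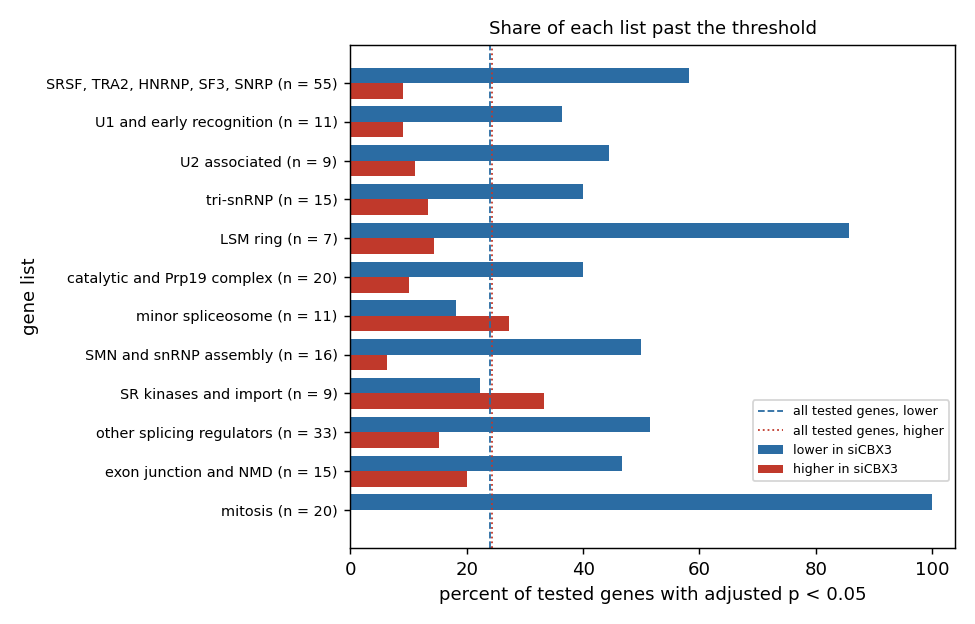
Percent of tested genes called lower (blue) and higher (red) in siCBX3 for the splicing factor families, 10 further splicing lists and a mitosis list, with vertical lines for all tested genes (24.0% lower and 24.4% higher). The families stand at 58.2% lower and 9.09% higher, and the lower share is just under the line for minor spliceosome genes (18.2%) and SR kinases (22.2%).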

How the data were processed

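Stranded mRNA libraries of 143B cells were compared, 2 siNC and 2 siCBX3. The authors deposited raw counts per gene and RPKM values, and per the file headers each column is 1 library. Trimmomatic 0.36, STAR 2.5.3a, Subread 1.5.1 (featureCounts) and build GRCh38 are named per the submitters' processing notes. Their roles, strand settings and the annotation are not given in the sources used here. Deposited RPKM values were the counts divided by merged exon length and depth, within 3.8e-07 in relative terms. Of count values from 1 to 20, 75.0% were even, so single counts may not be independent molecules, and p-values and SEs cover only the spread between these libraries.

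Counts were fitted in R 4.3.3 with edgeR 4.0.16: filterByExpr (minimum count 10, minimum total 15), TMM factors, and the quasi-likelihood test with group as only term over all 20999 genes, at 2 residual degrees of freedom. The prior had 22 degrees of freedom, so p-values and SEs also rest on spread shared across genes. SEs were taken as the absolute log2 fold change divided by the square root of F. The step was tested on simulated data with changed genes picked at random over all levels. It called 10 of 50 genes changed 1.25-fold, 29 of 50 at 1.5-fold, 33 of 50 at 2-fold and 46 of 50 at 4-fold. Of its 122 calls 4 were false. The simulation changed 50 of 20372 genes at each size, while 48.4% of tested genes were called in the data. Its recovery and false calls therefore do not measure those of this comparison. Alternatives used other scalings and filters, DESeq2 1.42.0, limma 3.58.1, a replicate term and each library left out. Exon overlaps were computed from the coordinates of the count table. Symbols of 147 of 148 listed genes were found, with older symbols matched and LSM8 in place of its older name. Pathway genes named are up to 3 called genes per list with the smallest adjusted p; members are given in full for the 12 smallest adjusted p, the 4 highest and 4 lowest log2 fold changes and the 4 top RPKM, and a few others were named after their values were seen. Members, lists and motifs were chosen with earlier results of these data known. Tables and plots were made with matplotlib 3.10.9, scipy 1.17.1, numpy 2.4.6 and pandas 2.3.3 in Python 3.11.15.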

Additional observations from a re-analysis of the deposited data

How the results depend on the processing

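The number of members that fell was 32, and it was 29 to 34 over the other scalings, filters and tests, with 22 to 33 when 1 library was left out. The number that rose was 5 and depended more on these choices: it was 2 with library totals, 2 with upper-quartile scaling, 3 in the subset with 50 counts or more on average, 1 on log2(RPKM + 1) and 1 on log2(RPKM + 0.1), and 1 (without siCBX3 replicate 2) to 8 (without siNC replicate 2) when 1 library was left out, with 3 without siCBX3 replicate 1. The median log2 fold change of the members went from -0.24 to -0.32 with library totals, -0.28 with upper-quartile scaling, -0.30 on log2(RPKM + 1) and -0.32 on log2(RPKM + 0.1). That of all tested genes moved the same way, from -0.01 to -0.09 (library totals) and -0.05 (upper quartile). On the RPKM scales it was -0.04 for log2(RPKM + 1) and -0.08 for log2(RPKM + 0.1). The shift between scalings was therefore not particular to the members. Among the 30 members without shared exon bases, 20 fell and 2 rose, with a median of -0.27. With a replicate block, 33 members fell and 7 rose. Deviations of same-numbered libraries correlated at 0.0287 across genes. With 1 difference per group that value cannot tell whether same-numbered libraries were paired, and the labels do not say. No called member changed direction in any of the 14 alternatives. Of the 32 calls of lower genes 18 held in all 14 alternatives, and of the 5 of higher genes 1 (HNRNPDL). Fewer samples enter when a library is left out; otherwise the cause was not tested. Depth limits SRSF12 and the 3 untested members.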
